A study of Mus musculus with 6 samples.

Results

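The genes described here encode the classical protein tyrosine phosphatases, the non-receptor enzymes named PTPN and the receptor-type enzymes named PTPR. Within the family, members were taken by name, whatever their values. A probe set counted when its only gene symbol was Ptpn plus a number or Ptpr plus 1 or 2 letters or digits. The family itself was chosen with earlier results of these data known, so its shares below are not a test of enrichment. Where a gene had several probe sets, the one with the highest mean over the arrays stood for it. This gave 37 genes, 17 PTPN and 20 PTPR, of 19938 genes measured. Ptprt, a further receptor form with a MAM domain, had no probe set with a single gene symbol and is not covered. The cells were mast cells grown from bone marrow, either wild type (WT) or lacking the microRNA miR-155 (miR-155 KO), all on the C57BL/6J strain. Each genotype had 3 cultures, and each culture 1 Affymetrix Mouse Gene 1.0 ST array. All 6 had spent 5 weeks with SCF (1 ng/ml) and IL-3 (0.5 ng/ml) and were then sensitized with anti-DNP IgE (0.2 µg/ml) and challenged with DNP-HSA (20 ng/ml) for 1 h. Resting cells were not part of the comparison, so it concerns genotype in challenged cells. The labels call the cultures independent without saying whether each came from its own mouse. The p-values below set the genotype difference against the spread between these cultures, moderated by the spread over all genes.

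Cross-linking of IgE on a mast cell starts a cascade of tyrosine phosphorylation that runs through Src family kinases and Syk, and tyrosine phosphatases set its threshold in both directions. CD45 and some other receptor phosphatases remove the inhibitory phosphate from Src family kinases and so prime them, whereas the kinase Csk puts that phosphate on. SHP-1, docked on receptors with an inhibitory tyrosine motif (ITIM), removes phosphate from the activated signalling proteins. SHP-2, a close relative, sustains signalling downstream of the SCF receptor Kit.

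The KO label names miR-155, and the sequences of this microRNA are shown because a microRNA recognises transcripts mainly through its seed. The mature strands are given 5′ to 3′ with the seed, bases 2 to 8, in capitals (RefSeq, GRCm38.p6, plus strand).

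mmu-miR-155-5p, chr16:84714143-84714165: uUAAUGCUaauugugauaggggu

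mmu-miR-155-3p, chr16:84714182-84714202: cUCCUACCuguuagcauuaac

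Values are log2 intensities after the authors' RMA, so a difference of 1 is a doubling of signal. Levels of different genes depend on their probes and are not compared with each other. Each gene was placed only against the median (3.92) and the upper quartile (6.39) of the gene means over all arrays. By this measure 12 phosphatase genes lay above the upper quartile (Ptpn1, Ptpn2, Ptpn3, Ptpn6, Ptpn7, Ptpn9, Ptpn11, Ptpn12, Ptpra, Ptprc, Ptprg and Ptprj). Another 8 lay between median and upper quartile (Ptpn4, Ptpn5, Ptpn13, Ptpn22, Ptpn23, Ptpre, Ptprn2 and Ptprs), with Ptpn13 at the median itself. The other 17 had means from 2.48 to 3.76, below the median. Those 17 are mostly receptor forms known from epithelium, endothelium, nerve or endocrine cells, such as Ptprb, Ptprd, Ptprk, Ptprm, Ptprz1 and Ptprn, and their signal may be background. Arrays were alike in scale, with medians over all probe sets from 3.67 to 3.74. The probe set for Mir155 itself read 2.93, 2.88 and 3.17 in WT and 2.77, 2.91 and 2.90 in KO, below the median level in both genotypes, so it does not check the labels. KO replicate 1 lay apart from the others on the first principal component over all genes, at 32.0 against 5.36 and 7.31 for KO replicates 2 and 3.

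None of the 37 phosphatase genes passed the test between genotypes (limma, Benjamini-Hochberg adjusted p under 0.05 over all 19938 genes): 0 were called higher and 0 lower. Of all genes 0.823% passed, 0.507% higher and 0.316% lower in KO, so a list of this size would hold few calls at that rate. The lowest adjusted p was 0.0539, for Ptpn22. At an unadjusted p under 0.05 there were 7 members (18.9%), 4 higher and 3 lower, against 12.7% of all genes. The 3 KO arrays lay wholly on 1 side of the 3 WT arrays for 8 members (21.6%), against 17.2% of all genes. These were 4 higher (Ptprc, Ptpre, Ptprf and Ptprj), where 8.18% of all genes did so, and 4 lower (Ptpn5, Ptpn6, Ptpn22 and Ptprv), where 9.05% did. Among genes above the median level, 5 of 20 members (25%) had an unadjusted p under 0.05, against 21.7%, and 6 of 20 (30%) had groups that did not overlap, against 24.7%. Both shares lay near those of genes in general. The median KO minus WT difference was 0.02 over the members and -0.01 over all genes. Precision differed between members, with 95% intervals (unadjusted) reaching 0.18 to 0.41 to either side of the difference, 0.22 at the median. For 27 of the 37 the whole interval lay between -0.5 and 0.5.

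**Figure D1:**
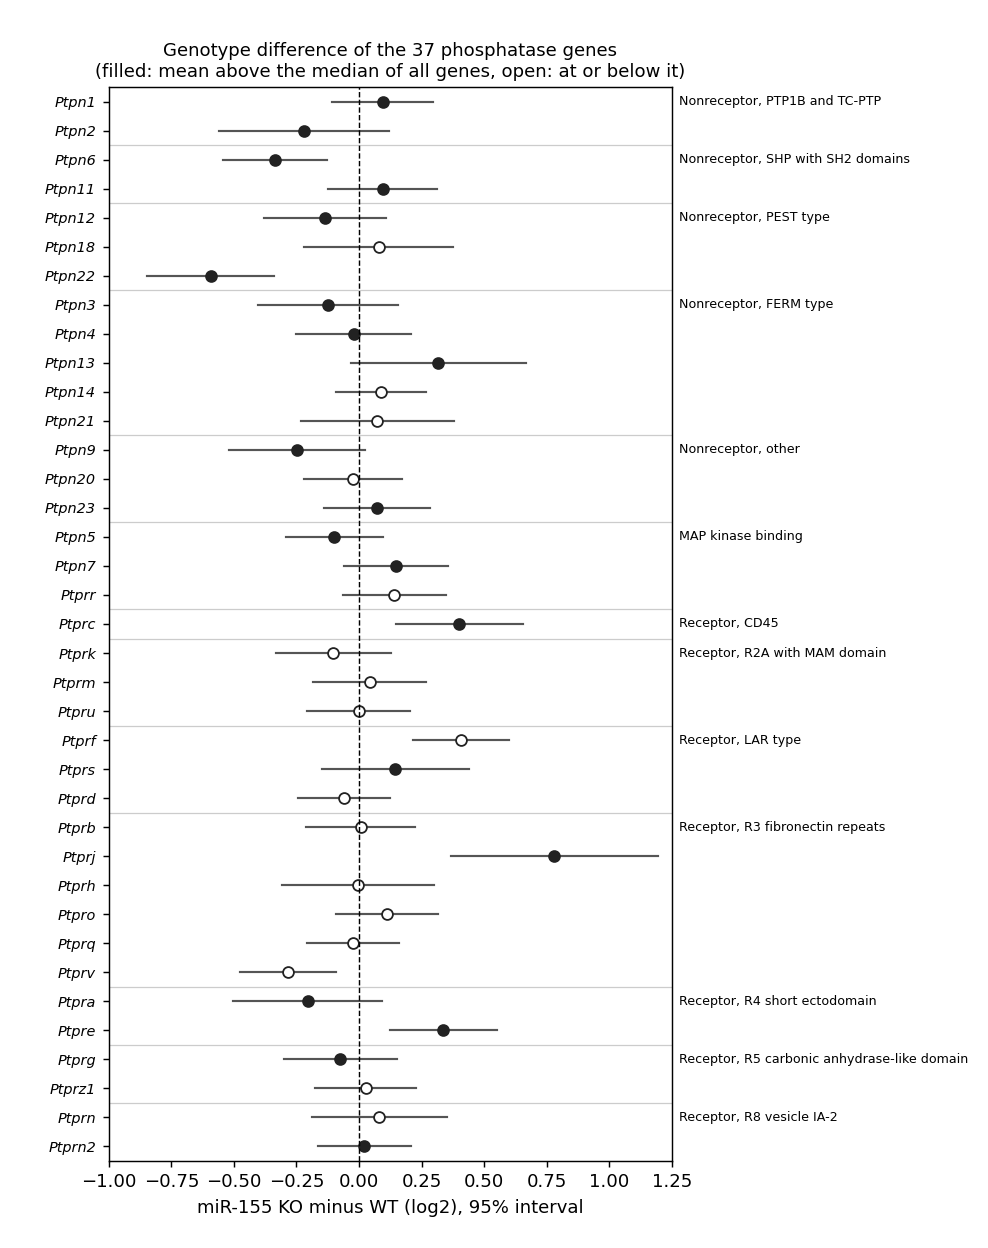
KO minus WT difference (log2, x axis) of each of the 37 phosphatase genes with its unadjusted 95% interval, grouped by structural class; filled points mark genes whose mean lies above the median of all genes. Most points lie close to 0, Ptprj is farthest to the right at 0.78 and Ptpn22 farthest to the left at -0.59.

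Ptprj encodes the receptor phosphatase CD148 (DEP-1), which has a single phosphatase domain behind a row of fibronectin repeats and acts on Src family kinases and growth factor receptors. It had the largest difference of the family. Its brighter probe set read 6.93, 7.16 and 6.85 on WT arrays 1 to 3 and 8.18, 7.41 and 7.69 on KO arrays 1 to 3. All KO arrays lay above all WT arrays, KO replicate 1 highest and KO replicate 2 nearest to WT. The means were 6.98 ± 0.16 in WT and 7.76 ± 0.39 in KO (SD, n = 3), a difference of 0.78 (SE 0.18, 1.72-fold, adjusted p = 0.0962).

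The second Ptprj probe set read 6.85, 6.91 and 6.53 in WT and 8.24, 7.42 and 7.72 in KO, with the same order of the KO arrays. Its means were 6.76 ± 0.20 and 7.79 ± 0.41, a difference of 1.03 (SE 0.20, 2.04-fold), and its adjusted p was 0.0568 in a test over all 21789 probe sets with 1 symbol, where the brighter one was at 0.100. Neither passed in that test, and both pointed the same way. Without KO replicate 1 the differences were 0.57 and 0.81. Without KO replicate 2 they were 0.96 (adjusted p = 0.0571) and 1.21 (adjusted p = 0.0381), so the second probe set passed in that fit. Alternative limma fits for each probe set numbered 7, with a block for replicate number or with 1 array left out. The second probe set passed in 1 of 7, at adjusted p from 0.0381 to 0.172. The brighter one passed in 0 of 7, at adjusted p from 0.0571 to 0.275.

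The annotation lists the same 7 transcript accessions for both probe sets, so they cannot be assigned to separate transcripts. The RefSeq promoter set holds 2 start windows for Ptprj, about 101 kb apart on the minus strand of chromosome 2. The array values do not say which start was used. Both windows, from 250 bases before to 50 after the start, are shown because they differ in base composition. CG dinucleotides are in capitals (RefSeq, GRCm38.p6, minus strand, 5′ to 3′).

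Ptprj, upstream start, chr2:90580546-90580845: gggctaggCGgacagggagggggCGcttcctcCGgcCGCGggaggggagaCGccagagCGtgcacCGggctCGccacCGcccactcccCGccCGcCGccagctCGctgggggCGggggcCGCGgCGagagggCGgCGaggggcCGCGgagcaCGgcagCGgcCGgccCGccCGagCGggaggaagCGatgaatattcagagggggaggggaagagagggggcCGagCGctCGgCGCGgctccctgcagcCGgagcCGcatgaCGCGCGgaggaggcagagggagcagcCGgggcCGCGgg

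Ptprj, downstream start, chr2:90479125-90479424: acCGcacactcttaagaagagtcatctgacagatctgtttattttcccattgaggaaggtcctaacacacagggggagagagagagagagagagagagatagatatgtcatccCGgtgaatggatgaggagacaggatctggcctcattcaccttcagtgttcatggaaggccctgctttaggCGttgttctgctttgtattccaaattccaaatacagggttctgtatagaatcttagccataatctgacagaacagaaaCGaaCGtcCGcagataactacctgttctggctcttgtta

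The upstream window holds 42 CG dinucleotides and is 79.3% G or C, and 3.03% of all 32851 such windows hold at least as many. The downstream window holds 6 and is 45.0% G or C, and 56.4% of all windows hold at least as many.

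CD45, encoded by Ptprc, is the abundant receptor phosphatase of blood cells and primes Src family kinases. It read 9.21, 9.05 and 9.37 in WT and 9.77, 9.54 and 9.53 in KO. The groups did not overlap, and KO replicate 1 was again the highest. The difference was 0.40 (SE 0.11, 1.32-fold, 95% interval 0.15 to 0.65), and it did not pass (adjusted p = 0.152).

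The short-ectodomain receptor phosphatases Ptpre and Ptpra also act on Src family kinases, and they pointed in opposite directions. Ptpre read 5.79, 5.56 and 5.56 in WT and 6.01, 5.91 and 6.01 in KO. All 3 KO arrays lay above WT, though the gap between the groups was narrower than the range of the WT arrays, at a difference of 0.34 (SE 0.09, adjusted p = 0.153). Ptpra read 6.76, 6.73 and 7.11 in WT and 6.46, 6.76 and 6.76 in KO. Its groups overlapped, WT replicate 3 standing high and KO replicate 1 low, at a difference of -0.21 (SE 0.13, adjusted p = 0.604).

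**Figure D2:**
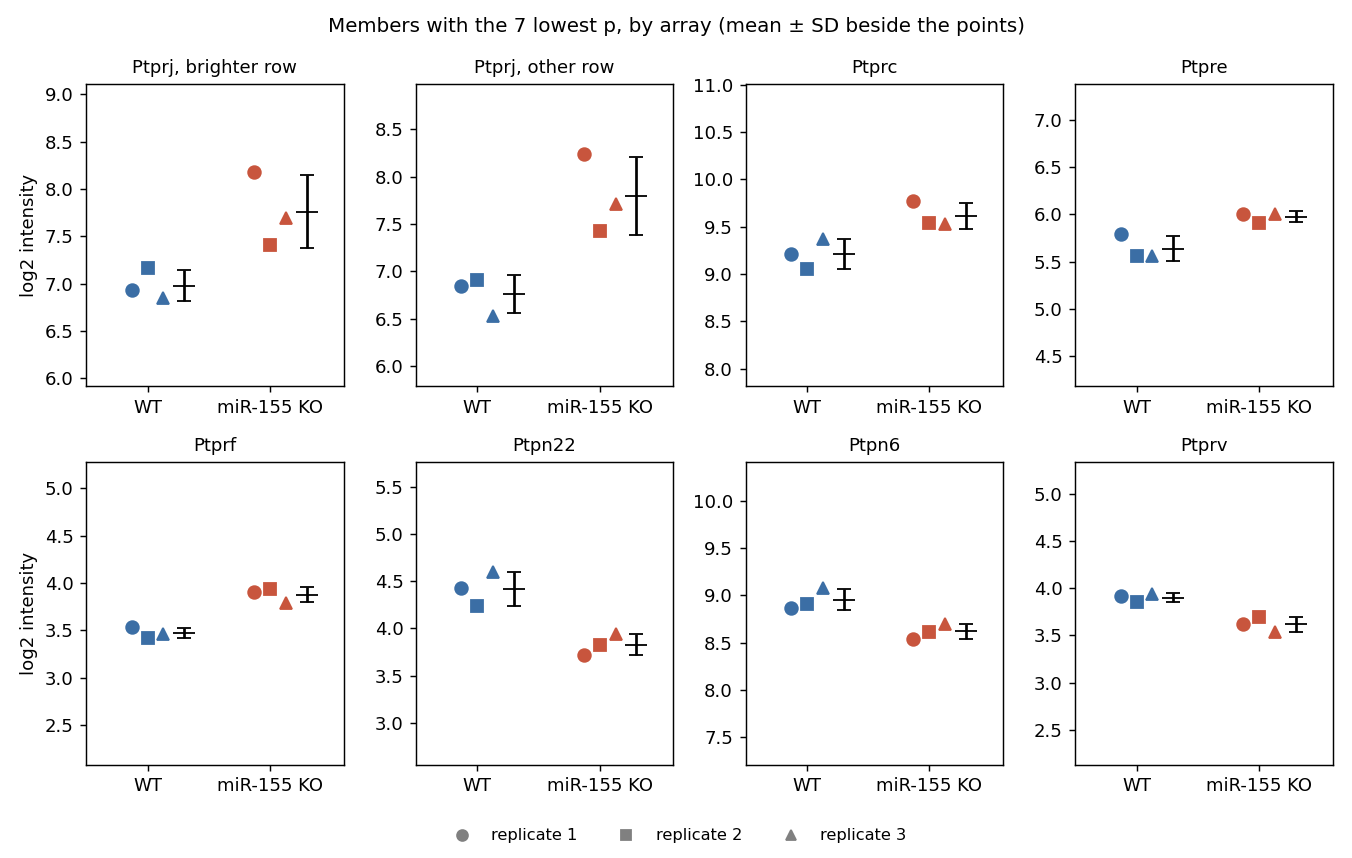
Log2 intensity (y axis, the same span in each panel) on every array for the members with the 7 lowest p, with Ptprj shown by both its probe sets; points are arrays, the shape gives the replicate number, and bars are mean ± SD over 3 arrays. In all 8 panels the KO points lie on 1 side of the WT points, and KO replicate 1 is highest in both Ptprj panels (8.18 and 8.24). These members were picked by low p, which favours such separation. Groups did not overlap for 8 of the 37 members and for 17.2% of all genes.

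Ptprf, which encodes LAR, a receptor of cell adhesion and nerve growth, read 3.53, 3.42 and 3.46 in WT and 3.91, 3.94 and 3.79 in KO. The replicates were tight and the groups apart, but all 6 values lay near the array medians. The difference was 0.41 (SE 0.08, 1.33-fold, adjusted p = 0.0729). Ptprv, known in mouse as the osteotesticular phosphatase, read 3.92, 3.85 and 3.94 in WT and 3.62, 3.69 and 3.53 in KO. Here KO was the lower group, again close to the array medians, at -0.28 (SE 0.08, adjusted p = 0.177). At such levels a fold change may understate or misstate the change in RNA.

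Among the remaining receptor forms Ptprg, a phosphatase with a carbonic anhydrase-like outer domain, gave clear signal in both genotypes. It read 9.15, 9.39 and 9.41 in WT and 9.19, 9.21 and 9.33 in KO. The values interleaved, and the interval of the difference ran from -0.30 to 0.15 (adjusted p = 0.848). Ptprs, a LAR relative that binds heparan and chondroitin sulfate chains, read 6.26, 6.06 and 6.06 in WT and 6.45, 5.99 and 6.37 in KO, and KO replicate 2 was the lowest of the 6 (difference 0.15, adjusted p = 0.744). Ptprr, which binds MAP kinases, read 2.88, 3.07 and 2.97 in WT and 3.15, 3.18 and 3.01 in KO, below the median level throughout (difference 0.14, SE 0.09, adjusted p = 0.608). The MAM-domain receptors Ptprk, Ptprm and Ptpru, the IA-2 proteins Ptprn and Ptprn2 of secretory vesicles, and Ptprb, Ptprd, Ptprh, Ptpro, Ptprq and Ptprz1 differed by -0.10 to 0.11 with overlapping groups. Over all 30 members with an unadjusted p of at least 0.05, the differences ran from -0.25 to 0.32 and the lowest adjusted p was 0.451.

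Of the non-receptor enzymes Ptpn22 differed most. Its product, PEP, binds Csk and dephosphorylates Src and Syk family kinases in lymphocytes. It read 4.42, 4.24 and 4.60 in WT and 3.72, 3.82 and 3.94 in KO. All KO arrays lay below all WT arrays, KO replicate 1 lowest, and the means differed by more than the range within either genotype. Means were 4.42 ± 0.18 and 3.83 ± 0.11 (SD, n = 3), a difference of -0.59 (SE 0.11, 1.51-fold lower, 95% interval -0.85 to -0.34, adjusted p = 0.0539). The WT mean lay little above the median level of all genes and the KO mean below it, so the fold may not be exact. Ptpn22 passed with quantile normalization (adjusted p = 0.0452), among genes above the median level only (0.0453) and with a trend and robust prior (0.0482). Over all alternatives its adjusted p ran from 0.0452 to 0.185, and it passed in 0 of the 6 fits without 1 array.

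The other PEST-type enzymes did not follow it. Ptpn12, PTP-PEST, which acts on cytoskeletal proteins, read 7.46, 7.45 and 7.66 in WT and 7.51, 7.21 and 7.44 in KO (difference -0.14, SE 0.11, adjusted p = 0.700). Ptpn18 read 3.60, 3.57 and 3.25 in WT and 3.76, 3.50 and 3.39 in KO (difference 0.08, adjusted p = 0.890). Both pairs of groups overlapped. Whether Ptpn22 differed from these 2 genes in its response was not tested.

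SHP-1 and SHP-2, the enzymes with SH2 domains, had differences of opposite sign. Ptpn6, which encodes SHP-1, read 8.87, 8.91 and 9.08 in WT and 8.54, 8.61 and 8.70 in KO. All KO arrays were below all WT arrays, by a margin similar to the spread within each genotype. The difference was -0.34 (SE 0.09, 1.26-fold lower, 95% interval -0.54 to -0.13), and it did not pass (adjusted p = 0.146). Ptpn11, which encodes SHP-2, read 6.98, 7.16 and 7.08 in WT and 7.31, 7.08 and 7.12 in KO. Its groups overlapped, and the difference of 0.09 had an interval from -0.12 to 0.31 (adjusted p = 0.787).

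Ptpn1 and Ptpn2 encode PTP1B, an enzyme of the endoplasmic reticulum, and TC-PTP, both of which restrain Janus kinase signalling. Ptpn1 read 8.15, 8.26 and 8.23 in WT and 8.32, 8.41 and 8.20 in KO (difference 0.09, interval -0.11 to 0.30, adjusted p = 0.762). Ptpn2 read 8.21, 8.05 and 8.41 in WT and 7.84, 7.85 and 8.32 in KO (difference -0.22, interval -0.56 to 0.12, adjusted p = 0.636), and KO replicate 3 alone lay within the WT range. The second, dimmer Ptpn2 probe set differed by -0.11.

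Ptpn9 encodes MEG2, an enzyme on secretory vesicles. It read 7.10, 7.49 and 7.21 in WT and 6.90, 7.15 and 7.01 in KO, and KO replicate 2 overlapped the WT range (difference -0.25, SE 0.12, adjusted p = 0.453). Ptpn7, a blood cell enzyme that binds MAP kinases, read 8.18, 8.33 and 8.20 in WT and 8.32, 8.51 and 8.32 in KO (difference 0.15, SE 0.09, adjusted p = 0.589). Ptpn13, a large scaffold-like enzyme with FERM and PDZ domains, read 3.52, 4.15 and 3.63 in WT and 4.13, 4.01 and 4.12 in KO. WT replicate 2 stood above all 3 KO arrays, and the difference of 0.32 did not pass (SE 0.15, adjusted p = 0.451). Ptpn3, a smaller FERM and PDZ enzyme, is covered by 12 probe sets, of which 11 had a negative difference. They ran from -0.32 to 0.02 and 0 passed (lowest adjusted p = 0.284 over all probe sets with 1 symbol). Probe sets of 1 gene on the same arrays are not independent. The last 5 genes, Ptpn4, Ptpn14, Ptpn20, Ptpn21 and Ptpn23, differed by -0.02 to 0.09 with overlapping groups. Ptpn5, a MAP kinase-binding enzyme best known from brain, read 4.63, 4.47 and 4.47 in WT and 4.40, 4.45 and 4.43 in KO, and its groups were apart by only a narrow gap (difference -0.10, adjusted p = 0.732).

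**Figure D3:**
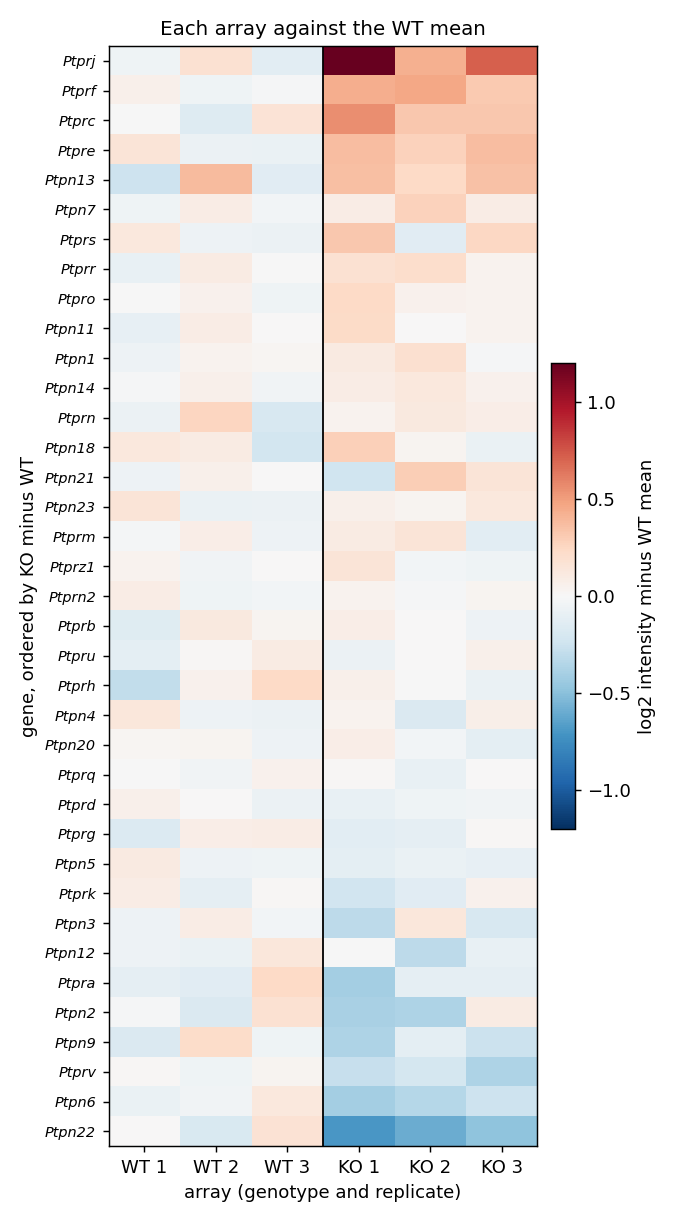
Log2 intensity of each array minus the WT mean of the gene (colour) for the 37 phosphatase genes, ordered by KO minus WT. Ptprj, Ptprf, Ptprc and Ptpre are above the WT mean on all 3 KO arrays and Ptpn22, Ptpn6 and Ptprv below it. Other members also lie on 1 side of it on all 3, such as Ptpn7 above and Ptpn5 and Ptpn9 below. The strongest single value is that of Ptprj on KO replicate 1 (8.18, WT mean 6.98).

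The kinases, docking receptors and adaptors that work with these phosphatases held 2 genes that passed and none that passed in the lower direction. Over 4 lists with 72 measured genes, 2 rose (2.78%) and 0 fell, where 0.507% of all genes rose and 0.316% fell. The median difference was 0.01, against -0.01 over all genes. Of the 72, 51 lay above the median level, where 99 of 9969 genes rose and 62 fell. The lists were chosen with earlier results of these data known, so their shares, here and below, are not a test of enrichment. Ceacam1, an adhesion receptor whose ITIM motifs dock SHP-1 and SHP-2, rose most. It read 5.11, 5.81 and 5.57 in WT and 7.89, 7.29 and 7.40 in KO, so the groups were separated by far more than their spread. Its difference was 2.03 (SE 0.20, 4.09-fold, adjusted p = 0.00576). Ceacam1 passed in all 6 fits without 1 array (adjusted p from 0.00655 to 0.0386), and was at 0.0840 when every probe set, named or not, was tested. The probe set of its close relative Ceacam2 differed by 0.02, at means of 2.94 and 2.96. Of the 20 measured ITIM and related receptors the other 19 did not pass. Cd72, a receptor of B cells, differed by -0.42 (adjusted p = 0.279), at a mean of 3.67, below the median level of all genes. Fcgr2b, the inhibitory Fc receptor for IgG, differed by -0.37 (SE 0.15, adjusted p = 0.335), with overlapping groups.

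Tec, a kinase activated downstream of phosphoinositide 3-kinase and Src family kinases, rose from 6.85 ± 0.15 to 7.64 ± 0.19 (1.73-fold, SE 0.12, adjusted p = 0.0302). It read 6.98, 6.88 and 6.68 in WT and 7.78, 7.42 and 7.71 in KO, without overlap. It no longer passed without WT replicate 1 (0.0832), 2 (0.104) or 3 (0.109), or without KO replicate 1 (0.0700) or 3 (0.0984), or over every probe set (0.159). Its difference ran from 0.70 to 0.90 in the fits without 1 array. Of all genes 164 passed in the main fit, 15 to 103 in the fits without the arrays just named, and 4 over every probe set. The other 16 of 17 measured kinases did not pass. Csk, the kinase that Ptpn22's product binds, read 8.48, 8.53 and 8.68 in WT and 7.79, 8.05 and 8.11 in KO. Both genes were thus lower on all 3 KO arrays, Csk by -0.58 (SE 0.11, adjusted p = 0.0531), and whether they moved together was not tested. Jak2, a kinase that PTP1B acts on, read 9.20, 8.94 and 8.77 in WT and 10.63, 9.52 and 9.94 in KO (difference 1.06, SE 0.25, adjusted p = 0.0962). As for Ptprj, KO replicate 1 was the highest array and KO replicate 2 the nearest to WT.

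Of 22 adaptors and scaffolds 0 passed by limma, though 7 had an unadjusted p under 0.05, 2 higher and 5 lower. That is 31.8%, against 12.7% of all genes and 21.7% of genes above the median level, where 20 of the 22 lay. Their median difference was -0.18, against -0.01 over all genes, and 17 of 22 (77.3%) were negative, against 52.0% of all genes. Pstpip2, which binds PEST-type phosphatases, read 7.53, 7.53 and 7.77 in WT and 6.98, 7.11 and 7.21 in KO (difference -0.51, SE 0.10, adjusted p = 0.0641). Gab3, a docking protein for SHP-2, differed by -0.60 (SE 0.13, adjusted p = 0.0861). Dok2, an adaptor that restrains Ras, differed by 0.62 (SE 0.15, adjusted p = 0.105). For these 3, named because their p was the lowest of the list, the groups did not overlap. That held for 8 of the 22 (36.4%), against 17.2% of all genes and 24.7% of genes above the median level.

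**Figure D4:**
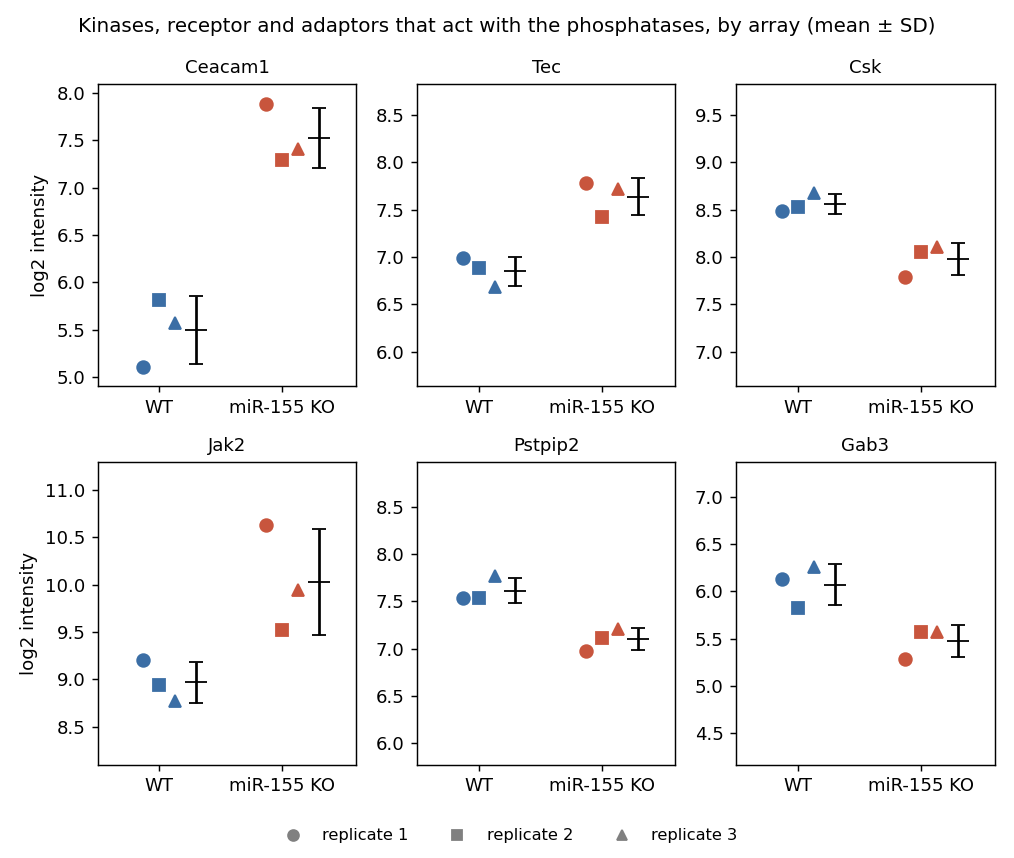
Log2 intensity (y axis, the same span in each panel) on every array for 6 genes that act with the phosphatases; points are arrays, shapes give the replicate number, and bars are mean ± SD over 3 arrays. Ceacam1 lies between 5.11 and 5.81 in WT and between 7.29 and 7.89 in KO, and Csk, Pstpip2 and Gab3 are lower on all KO arrays.

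Of 12 measured mast cell markers 11 lay above the median level of all genes, and Mrgprb2, a receptor of connective tissue mast cells, had a mean of 3.80, just below it. The IgE receptor chain Fcer1a read 12.06 ± 0.13 and 12.10 ± 0.10, and Kit 11.89 ± 0.19 and 11.82 ± 0.10. None of the 12 passed (limma). An unadjusted p under 0.05 was found for 3 (25%), against 12.7% of all genes and 21.7% of genes above the median level. These were Hdc, the histamine-forming enzyme (difference 0.84, SE 0.28, adjusted p = 0.233), the protease Mcpt4 (0.44, SE 0.13, adjusted p = 0.174), both with groups apart, and the transcription factor Mitf (-0.29, SE 0.12, adjusted p = 0.336), with overlapping groups. Of 53 measured markers of macrophages, lymphocytes, neutrophils, dendritic cells, basophils and eosinophils, erythroid cells, megakaryocytes and stroma 0 passed by limma, 3 had an unadjusted p under 0.05 (5.66%), and their mean level per array ran from 3.76 to 3.88 in WT and from 3.76 to 3.80 in KO. By their means 43 of the 53 lay at or below the median level of all genes, among them Csf1r, Cd14, Itgam, Cd3e, Ms4a1 and S100a8 on all 6 arrays. The 10 above it were Cd68, Pecam1, Itga2b, Epor, Mcpt8, Prss34, H2-Ab1, Itgax, Col1a1 and Col1a2. The class II gene H2-Ab1 read 5.03, 5.13 and 5.05 in WT and 4.71, 4.42 and 4.40 in KO, with groups apart (difference -0.56, SE 0.10, adjusted p = 0.0523). Itgax differed by 0.39 (adjusted p = 0.382) and the eosinophil gene Prg2 by -0.22 (adjusted p = 0.377). The basophil protease Mcpt8 varied between cultures within each genotype, from 5.23 to 7.56 in WT and from 5.64 to 7.58 in KO. In cultures of this kind fewer cells of a type and less RNA per cell cannot be told apart, and the part of minor cell types in the differences above was not tested.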

How the data were processed

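Cultured mast cells of 2 genotypes, 3 cultures each, were measured, with 1 array to a culture. The authors deposited log2 intensities made with RMA, per the submitters' processing notes, which name no version. The method corrects background, normalizes between arrays and summarises probes, which compresses differences of dim genes. These values were used as deposited. Precision is limited by the small number of arrays. Of 35557 probe sets, 21789 had 1 platform gene symbol, 1621 had several and 12147 were not listed. With 1 probe set per symbol 19938 genes remained. All 37 members matched the RefSeq gene table by Entrez ID, and 31 had a start window in the RefSeq promoter table.

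The test was limma (version 3.58.1, under R version 4.3.3) with lmFit and eBayes on genotype alone ( 4 residual and 4.68 prior degrees of freedom), two-sided, with Benjamini-Hochberg adjustment across all genes at 0.05. The fit was tested on simulated data. SE is the moderated standard error, and ± is the SD. The phosphatase genes, the partner lists, the marker lists and the rule for naming genes (Ptprj, the 12 members with the lowest p, 11 members fixed by their role, called partner genes and the 3 lowest p of each partner list) were chosen with earlier results of these data known. Ceacam2, Mir155, the adjoining genes and the single markers named were added after their values were seen. The alternatives were a replicate block, quantile normalization, median centring, a filter on dim genes, a trend and robust prior, other handling of a gene's probe sets, leaving out each array and, chosen after seeing the data, testing every probe set. The labels do not say that replicate numbers pair the cultures. Deviations of same-numbered arrays correlated at -0.01, -0.06 and 0.24 across genes, and those of differently numbered arrays at -0.25 to 0.24. So few arrays cannot settle whether cultures shared a litter or a day. Plots were drawn with matplotlib 3.10.9.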

Additional observations from a re-analysis of the deposited data

How the results depend on the processing

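The count of phosphatase genes that passed stayed at 0 higher under all 14 alternatives. The count lower was 1 (Ptpn22) with quantile normalization, among genes above the median level and with a trend and robust prior, and 0 under the other 11, the replicate block included. Leaving out 1 array moved the difference of the brighter Ptprj probe set between 0.57 and 0.96 and of the other between 0.81 and 1.21. With the replicate block these stayed at 0.78 and 1.03 (adjusted p = 0.117 and 0.0516). The labels name nothing beyond the number that same-numbered arrays share, so the block has no basis in them. Partner genes higher numbered 1 to 3 without 1 array and 0 when every probe set was tested. Partner genes lower numbered 1 with the replicate block (Csk), 2 with quantile normalization (Csk and Pstpip2), 1 among genes above the median level (Csk) and 1 with a trend and robust prior (Csk), and 0 otherwise. Jak2 passed with the replicate block and without KO replicate 2 (adjusted p = 0.0401 and 0.0438). The causes of these shifts were not tested. With 3 arrays a group, differences under about 0.2 lie within the intervals of most members. The folds of dim members may understate or misstate the change in RNA.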

Other observations

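Of 14 measured ligands and partners of receptor phosphatases 0 passed by limma and 1 had an unadjusted p under 0.05 (7.14%, against 12.7% of all genes). This was Lgals1, a galectin that binds sugars on CD45, which read 11.30, 11.62 and 11.64 in WT and 11.22, 11.31 and 10.97 in KO (difference -0.35, SE 0.13, adjusted p = 0.274). Lgals3, another galectin, differed by 0.30 (adjusted p = 0.674). Ptn, which encodes the Ptprz1 ligand pleiotrophin, differed by -0.08 (adjusted p = 0.779) below the median level of all genes.

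Some members lie next to each other in the genome. Ptprv and Ptpn7 overlap on chromosome 1 in the RefSeq gene table and differed by -0.28 and 0.15, in opposite directions. Ptprr and Ptprb adjoin on chromosome 10 and differed by 0.14 and 0.01. None of these 4 genes passed.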
